A study of Mus musculus with 3 samples.

Results

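Integrins and laminins were compared between JC-WT, JC-P and JC-M3, which are cultured sublines of JC, a carcinoma line of the mouse mammary gland, labelled as epithelial-like, all with the genotype WT. The genes were taken by symbol, as every integrin α or β subunit and every laminin α, β or γ chain in the deposited table, which gave 37 of 55471 features: 18 α subunits, 8 β subunits and 11 laminin chains. RNA sequencing of polyadenylated RNA gave 1 library per population. The treatment label is WT for JC-WT and metastasis for both JC-P and JC-M3. By the protocols and the design text, however, JC-P cells were recovered from a tumour grown for 14 days in the fat pad, and JC-M3 was selected from them in 3 rounds, each with 500000 cells given by tail vein and lung lesions freed after 28 days with type I collagenase (1 mg/mL). How JC-WT cells relate to the injected cells, whether each population is a clone, and how host cells were removed before culture, is not given in the sources used here.

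Integrins are receptors made of 1 α and 1 β subunit that join the extracellular matrix, or a partner on another cell, to the actin or keratin cytoskeleton. The α subunit largely sets the ligand, and the β subunit carries most of the contact with talin, kindlin or plectin inside the cell. Laminins are secreted trimers of an α, a β and a γ chain that form the sheet of a basement membrane, and epithelial cells of the mammary gland hold on to it through laminin-binding integrins. In hemidesmosomes the α6β4 integrin ties laminin to keratin filaments.

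Depth, as recovered from the table, was 18093426 assigned reads for JC-WT, 22132593 for JC-P and 23386413 for JC-M3. Levels are in TPM, a read density per gene length scaled to the same total in each library. The length takes in all merged exons of a gene, used or not, so levels of different genes can be compared only roughly. JC-P/JC-WT, JC-M3/JC-P and JC-M3/JC-WT stand for the log2 of 1 population over the other, taken on TPM + 0.5, which shrinks the ratios of low genes. A difference of at least 2-fold was called. The range in brackets after a ratio is its exact 95% counting interval without the added 0.5 TPM, and for low genes the ratio itself can fall outside. With 1 library per population there was no replicate check, nothing was tested for significance, and the intervals cover counting error only. The label epithelial-like was met in part by 6 epithelial markers, of which 2 were measured and whose sum was 1552 TPM in JC-WT cells, 1922 in JC-P cells and 700.4 in JC-M3 cells. The keratin gene Krt8 stood at 1503 TPM in JC-WT cells, 1873 TPM in JC-P cells and 681 TPM in JC-M3 cells, whereas Epcam and Cldn7 had 0 reads in every library and Cdh1 had 0, 25 and 21 reads in the same order. In bulk RNA, fewer cells of a type and less RNA per cell cannot be told apart.

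Of the 37 genes, 24 reached a mean of 1 TPM over the 3 libraries and are called measured here. Of 7 measured β subunits, 1 was called for JC-P/JC-WT and 5 for each ratio of JC-M3. None of the 6 measured laminin chains was called in any comparison. Over all 14527 measured features the share called was 7.1% for JC-P/JC-WT, 9.2% for JC-M3/JC-P and 11.4% for JC-M3/JC-WT. For as few as 6 laminin chains, no call is near these shares and does not show that laminins were stable. In JC-M3 the β subunit genes Itgb4, Itgb7 and Itgb2 were lower than in both other populations and Itgb5 and Itgb8 higher, each by at least 2-fold, while Itgb1 remained by far the most abundant. Lama5 was lower and Lama4 higher in JC-M3 than in JC-WT by more than counting error, both within 2-fold.

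For JC-P/JC-WT, 4 of the 24 measured genes (16.7%) were called, against 7.1% of all features, with 0 higher (background 4.76%) and 4 lower (2.33%): Itga1, Itga8, Itgax and Itgb4. For JC-M3/JC-P, 5 (20.8%) were called against 9.2% of all features, with Itgb5 and Itgb8 higher (background 3.82%) and Itgb2, Itgb4 and Itgb7 lower (5.38%). For JC-M3/JC-WT, 7 (29.2%) were called against 11.4% of all features, with Itgb5 and Itgb8 higher (background 6.14%) and Itga8, Itgax, Itgb2, Itgb4 and Itgb7 lower (5.27%). No change lay outside the interval for 19, 19 and 20 of the 24 genes in these comparisons, against 55.5%, 59.7% and 60.3% of all features, and for every called gene. Since the interval narrows with read number and the genes were not matched to all features in reads, these shares are not a like comparison. The calls fell on 8 genes, all of them among the 18 measured integrins, and the other 16 measured genes lay within 2-fold in every comparison. Any 2 of these comparisons have a library in common and are not independent. The median log2 ratio of the 24 genes was close to that of all features in each case, at 0.06 beside 0.01 for JC-P/JC-WT, 0.09 beside -0.01 for JC-M3/JC-P and 0.04 beside 0.00 for JC-M3/JC-WT.

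**Figure D1:**
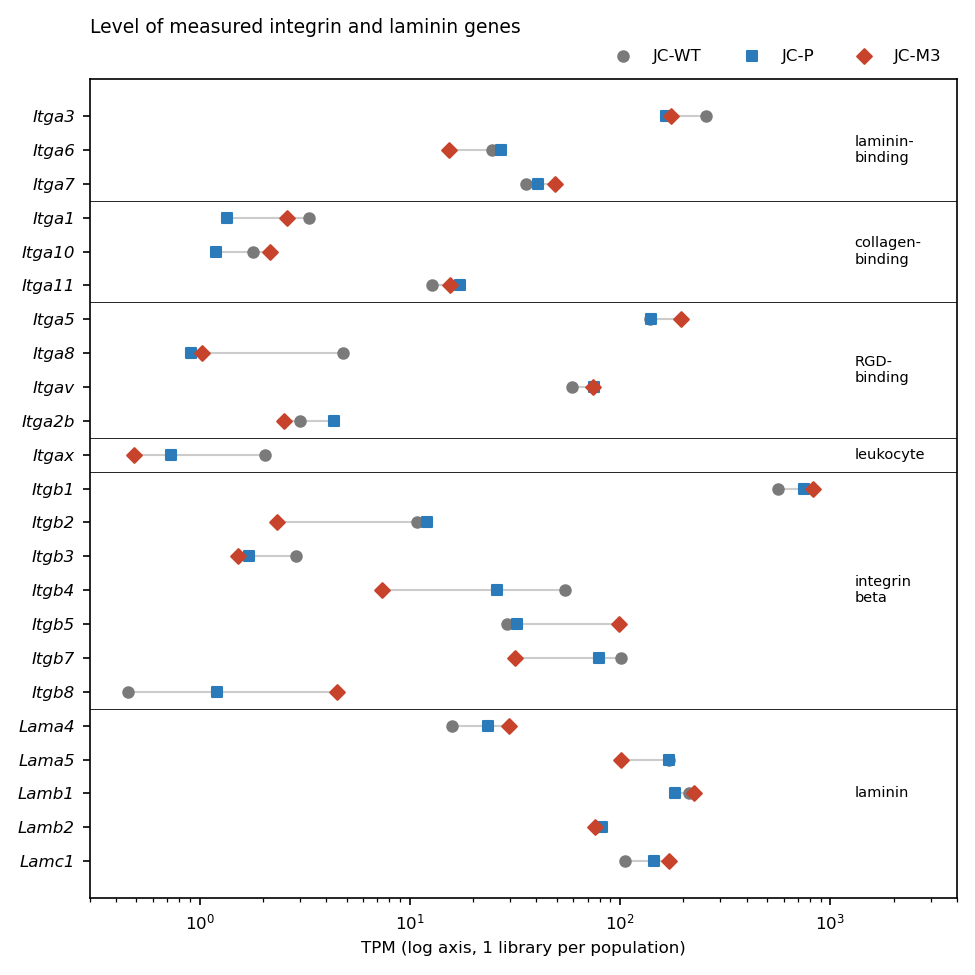
Level in TPM (log axis) of 23 measured integrin and laminin genes in JC-WT (circles), JC-P (squares) and JC-M3 (diamonds), 1 library each, grouped by what the subunits bind or by subunit class. The points of Itgb4, Itgb7, Itgb2, Itgb5 and Itgb8 lie far apart, as do those of Itga8 and Itgax, whereas those of the laminin chains and of Itgb1 lie close together.

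Itgb4 encodes the hemidesmosome subunit, known to pair with α6 alone. It lies on chromosome 11 from 115974709 to 116008412 (GRCm38, plus strand) with 41 merged exons. Its level was 54.4 TPM in JC-WT cells, 26.03 TPM in JC-P cells and 7.36 TPM in JC-M3 cells, from 2050, 1200 and 354 reads. The level was thus lower in JC-M3 than in JC-P and lower in JC-P than in JC-WT. The log2 ratio was -1.05 (-1.17 to -0.96) for JC-P/JC-WT, -1.76 (-2.00 to -1.65) for JC-M3/JC-P and -2.81 (-3.05 to -2.72) for JC-M3/JC-WT. Taken on TPM + 0.5, the last is 6.99-fold lower in JC-M3. With chromosome medians subtracted, as described at the end, the ratio of JC-P/JC-WT was -0.99 and no longer called. Its partner Itga6, which also pairs with β1, stood at 24.6 TPM in JC-WT cells, 27.2 TPM in JC-P cells and 15.4 TPM in JC-M3 cells. Itga6 TPM was 0.452 times that of Itgb4 in JC-WT, 1.05 times in JC-P and 2.09 times in JC-M3. Of 6 basal and myoepithelial markers only Acta2 was measured, and the list summed to 18.2 TPM in JC-WT cells, 2.75 TPM in JC-P cells and 642 TPM in JC-M3 cells. Acta2 made up most of that sum in each library, at 16.5, 2.22 and 641.6 TPM in the same order, so the sum does not describe the other markers. The basal keratin gene Krt5 had 14 reads in JC-WT cells, 4 in JC-P cells and 1 in JC-M3 cells, and Krt14 had 3, 0 and 0. Krt17 had 1, 0 and 0 reads in the same order and Oxtr 3, 3 and 0. Trp63 went the other way, with 2, 9 and 20 reads. The part of these markers in the level of Itgb4 was not tested.

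Itgb5 encodes a β subunit known to pair with αv and to bind vitronectin, and Itgb8 another αv partner, best known for activating latent TGF-beta. Itgb5 stood at 28.9 TPM in JC-WT cells, 32.4 TPM in JC-P cells and 98.5 TPM in JC-M3 cells, from 552, 756 and 2400 reads. JC-M3 was the high library, and JC-P and JC-WT lay close together. The log2 ratio was 1.59 (1.49 to 1.72) for JC-M3/JC-P and 1.75 (1.63 to 1.90) for JC-M3/JC-WT. Itgb8 stood at 0.455 TPM in JC-WT cells, 1.21 TPM in JC-P cells and 4.51 TPM in JC-M3 cells, from 27, 88 and 342 reads. The level was higher at each step, with log2 ratios of 0.84 (0.78 to 2.09) for JC-P/JC-WT, 1.55 (1.55 to 2.25) for JC-M3/JC-P and 2.39 (2.74 to 3.93) for JC-M3/JC-WT. Despite its large ratio, Itgb8 stood far below Itgb5 in each library. The shared partner Itgav, at 58.9 TPM in JC-WT cells, 75.4 TPM in JC-P cells and 74.1 TPM in JC-M3 cells, lay within 2-fold throughout. In JC-M3 Itgb5 stood above Itgav, whereas in the other populations it stood below.

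Itgb7 and Itgb2 encode β subunits known chiefly from leukocytes, where β7 pairs with α4 and αE and β2 with αL, αM, αX and αD. Itgb7 was the seventh most abundant of the 37 genes in JC-WT, at 101 TPM, and stood at 79.0 TPM in JC-P cells and 31.6 TPM in JC-M3 cells, from 1505, 1438 and 601 reads. Its log2 ratio was -0.36 (-0.46 to -0.25) for JC-P/JC-WT, -1.31 (-1.46 to -1.18) for JC-M3/JC-P and -1.66 (-1.82 to -1.54) for JC-M3/JC-WT. Both known partners were near or at the limit of detection. Itga4 had 0 reads in every library, which allows up to 0.0400 TPM in JC-WT cells, 0.0327 TPM in JC-P cells and 0.0313 TPM in JC-M3 cells by the limit of 3 reads, and Itgae had 12, 7 and 7 reads. Itgb2 stood at 10.9 TPM in JC-WT cells, 12.1 TPM in JC-P cells and 2.34 TPM in JC-M3 cells, from 178, 242 and 49 reads. JC-M3 was the low library, with log2 ratios of -2.15 (-2.84 to -1.92) over JC-P and -2.00 (-2.70 to -1.75) over JC-WT.

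Among the α partners of β2, Itgam and Itgad had 0 reads in every library, Itgal had 2 in JC-WT cells, 0 in JC-P cells and 1 in JC-M3 cells, and Itgax was the measured one. Itgax stood at 2.06 TPM in JC-WT cells, 0.729 TPM in JC-P cells and 0.486 TPM in JC-M3 cells, from 53, 23 and 16 reads, with log2 ratios of -1.06 (-2.27 to -0.77) for JC-P/JC-WT, -0.32 (-1.60 to 0.40) for JC-M3/JC-P and -1.37 (-2.99 to -1.25) for JC-M3/JC-WT. The call of Itgax for JC-P/JC-WT was lost with pseudocount 2, at -0.57, as was that for JC-M3/JC-WT, at -0.71. Of the merged exon bases of Itgam, 68.7% also belong to the overlapping gene Gm49368, which was itself at 0 TPM in every library. Reads in the shared bases may have been counted for neither gene, so the level of Itgam is uncertain. The leukocyte marker list held 7 genes, of which Cd53 and Coro1a were measured. Its summed level was 38.7 TPM in JC-WT cells, 23.2 TPM in JC-P cells and 4.28 TPM in JC-M3 cells, nearly all of it from Cd53 at 34.0, 19.8 and 1.67 TPM in the same order. The defining leukocyte gene Ptprc, encoding CD45, had 0 reads in every library, as had Cd52 and Cd3e. Of 6 myeloid markers Cd68 alone was measured, the list summed to 13.0 TPM in JC-WT cells, 7.30 in JC-P cells and 9.71 in JC-M3 cells, and Adgre1 and Tyrobp had 0 reads in each. Lyz2 had 4, 2 and 16 reads in the same order, highest in JC-M3, and Csf1r had 17, 11 and 8, lowest in JC-M3.

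The start regions of the genes with the highest and lowest ratios of JC-M3/JC-WT are printed to show what these oppositely ordered genes have in front of them, namely Itgb5 and Itgb8 (higher) and Itgb7 and Itga8 (lower). They are the extremes among the 23 of 37 genes matched by symbol in the RefSeq promoter table (GRCm38.p6), which gives 26 start regions for them. Itgb4 and Itgb2, whose ratios were lower than those of Itgb7 and Itga8, had no match there. Each printed region is the 250 bases before the RefSeq start, 5′ to 3′ on the gene's strand. In the GENCODE M21 annotation used for gene lengths, Itgb8 reaches 119238802, so that its printed region lies inside the gene. The region of Itgb7 overlaps the first bases of its gene there. Capitals mark the GC box, GGGCGG, which reads CCGCCC where it lies on the other strand.
Itgb5: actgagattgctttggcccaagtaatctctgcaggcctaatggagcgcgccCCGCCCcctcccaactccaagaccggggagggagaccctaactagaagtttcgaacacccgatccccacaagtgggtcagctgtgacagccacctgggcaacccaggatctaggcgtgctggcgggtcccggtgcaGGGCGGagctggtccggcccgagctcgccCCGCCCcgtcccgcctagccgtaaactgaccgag
Itgb8: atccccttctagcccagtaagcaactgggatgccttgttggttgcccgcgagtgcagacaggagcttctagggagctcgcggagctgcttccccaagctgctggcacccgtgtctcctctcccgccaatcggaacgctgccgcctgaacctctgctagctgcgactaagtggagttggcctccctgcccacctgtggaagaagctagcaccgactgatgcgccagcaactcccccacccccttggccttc
Itgb7: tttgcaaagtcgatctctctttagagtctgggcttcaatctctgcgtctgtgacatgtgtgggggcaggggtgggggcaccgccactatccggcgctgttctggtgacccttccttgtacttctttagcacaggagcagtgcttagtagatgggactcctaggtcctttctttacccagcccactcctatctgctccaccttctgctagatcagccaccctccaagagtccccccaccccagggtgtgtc
Itga8: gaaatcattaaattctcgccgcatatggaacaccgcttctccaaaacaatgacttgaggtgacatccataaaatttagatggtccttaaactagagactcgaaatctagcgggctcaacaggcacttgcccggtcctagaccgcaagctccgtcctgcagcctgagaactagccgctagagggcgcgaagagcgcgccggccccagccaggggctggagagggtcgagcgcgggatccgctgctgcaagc
They lie at chr16:33829415-33829664 (plus strand), chr12:119238277-119238526 (minus), chr15:102231936-102232185 (minus) and chr2:12301945-12302194 (minus). Itgb5 held 3 GC boxes and the other printed regions none. A GC box stood in 9 of the 26 member regions (34.6%) and in 32.7% of all 32851 regions in the table. None of the other motifs searched on both strands, the AP-1 site TGAGTCA, the E-box CACGTG, the TATA box TATAAA and the CArG box, was in the printed regions. Over all 26 regions the AP-1 site was found in 1 (Itgax), against 4.46% of all regions, the CArG box in 2 (Itgb6 and Lama2), against 1.47%, and the E-box and the TATA box in 0, against 6.02% and 12.4%. The number of CG pairs was 18 for Itgb5, 12 for Itgb8, 5 for Itgb7 and 18 for Itga8, beside a median of 6 over all regions. With 2 genes on each side, the part of GC boxes or CG pairs in the ratios was not tested.

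Itgb1, the common partner of most matrix-binding α subunits, was the most abundant of the 37 genes in each library, at 564 TPM in JC-WT cells, 747 TPM in JC-P cells and 831 TPM in JC-M3 cells. The log2 ratio was 0.41 (0.37 to 0.44) for JC-P/JC-WT, 0.15 (0.13 to 0.18) for JC-M3/JC-P and 0.56 (0.53 to 0.59) for JC-M3/JC-WT, beyond counting error and within 2-fold. It made up 73.9% of the summed β subunit TPM in JC-WT cells, 83.0% in JC-P cells and 85.1% in JC-M3 cells. The share of Itgb4 was 7.14%, 2.89% and 0.753% in the same order, that of Itgb7 13.3%, 8.78% and 3.24%, and that of Itgb5 3.80%, 3.6% and 10.1%. JC-M3 thus had Itgb5 as its second most abundant β subunit gene, where JC-P and JC-WT had Itgb7. The 12 α subunits known to pair with β1 summed to 539 TPM in JC-WT cells, 471 TPM in JC-P cells and 529 TPM in JC-M3 cells, so that Itgb1 TPM was 1.05, 1.59 and 1.57 times their sum. Itgb3, the subunit of the platelet fibrinogen receptor and of a vitronectin receptor, stood at 2.87 TPM in JC-WT cells, 1.73 in JC-P cells and 1.53 in JC-M3 cells, with -0.73 (-1.40 to -0.43) for JC-M3/JC-WT. Itgb6, an epithelial αv partner, had 1, 2 and 6 reads.

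**Figure D2:**
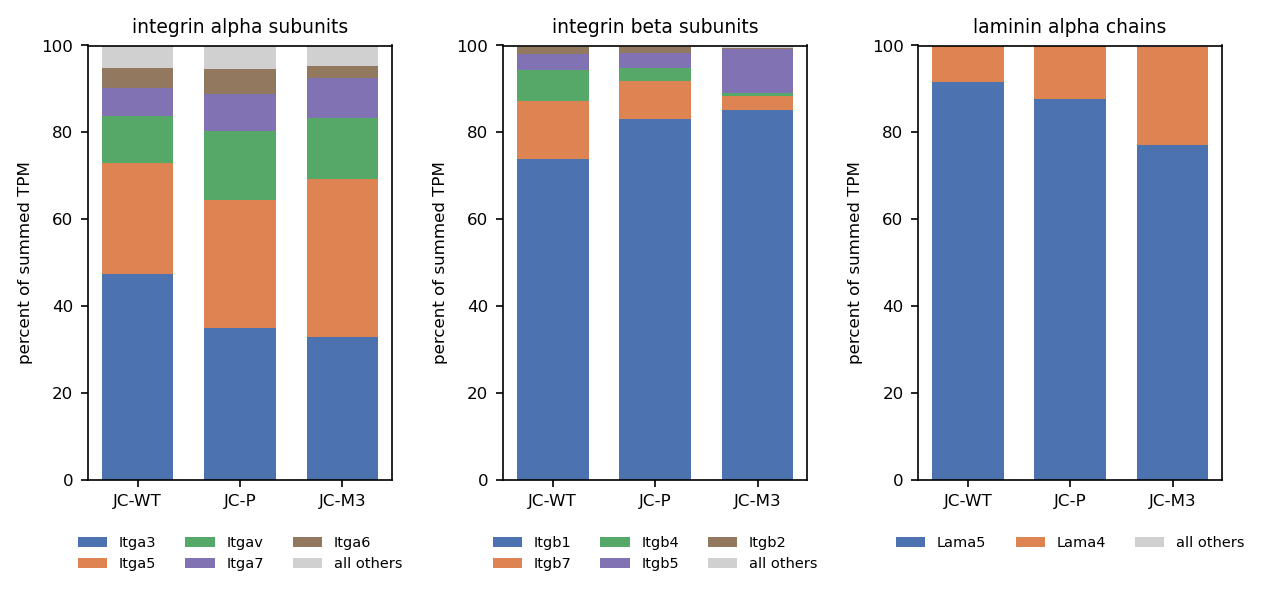
Share of summed TPM taken by the integrin α subunit genes (left), the integrin β subunit genes (middle) and the laminin α chain genes (right), with a bar each for JC-WT, JC-P and JC-M3 and minor genes pooled in grey. Itga3 took 47.2% of the α sum in JC-WT cells, 34.8% in JC-P cells and 32.7% in JC-M3 cells, Itgb1 took most of the β sum, and Lama4 took 8.44%, 12.1% and 22.7% of the laminin α sum.

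The laminin-binding α subunits Itga3, Itga6 and Itga7 were ordered differently from each other. Itga3, encoding a main laminin receptor subunit of epithelial cells, stood at 257 TPM in JC-WT cells, 166 TPM in JC-P cells and 174 TPM in JC-M3 cells, from 7881, 6223 and 6827 reads. JC-WT was the high library, with log2 ratios of -0.63 (-0.68 to -0.58) for JC-P/JC-WT and -0.56 (-0.61 to -0.51) for JC-M3/JC-WT, both within 2-fold. Itga6 was low in JC-M3, with log2 ratios of -0.80 (-0.94 to -0.71) over JC-P and -0.66 (-0.80 to -0.55) over JC-WT. Itga7, a laminin receptor subunit best known from muscle, stood at 35.8 TPM in JC-WT cells, 40.8 TPM in JC-P cells and 49.1 TPM in JC-M3 cells, a log2 ratio of 0.45 (0.36 to 0.54) for JC-M3/JC-WT. The 3 genes together summed to 318 TPM in JC-WT cells, 234 TPM in JC-P cells and 239 TPM in JC-M3 cells.

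Among α subunits that bind RGD motifs, Itga5, the fibronectin receptor subunit, stood at 139 TPM in JC-WT cells, 141 TPM in JC-P cells and 195 TPM in JC-M3 cells. JC-M3 was the high library, with log2 ratios of 0.47 (0.41 to 0.52) over JC-P and 0.48 (0.42 to 0.54) over JC-WT. In JC-M3 Itga5 was the most abundant α subunit gene, with 36.6% of the α sum, whereas in JC-P and JC-WT it was Itga3. Itga8, which encodes a nephronectin and fibronectin receptor subunit and lies on chromosome 2 from 12106632 to 12301922, stood at 4.80 TPM in JC-WT cells, 0.909 TPM in JC-P cells and 1.03 TPM in JC-M3 cells, from 190, 44 and 52 reads. Its log2 ratio was -1.91 (-2.91 to -1.92) for JC-P/JC-WT and -1.79 (-2.70 to -1.77) for JC-M3/JC-WT, while JC-M3/JC-P gave 0.12 (-0.43 to 0.79). Itga2b, the platelet fibrinogen receptor subunit, stood at 3.01 TPM in JC-WT cells, 4.35 TPM in JC-P cells and 2.51 TPM in JC-M3 cells, and of 5 platelet markers Ppbp alone was measured, at 2.41, 4.07 and 3.50 TPM in the same order. The 4 RGD-binding α subunits summed to 206 TPM in JC-WT cells, 222 TPM in JC-P cells and 272 TPM in JC-M3 cells, above the laminin-binding sum in JC-M3 and below it in the other 2 populations.

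The collagen-binding α subunits were low, and Itga11, known from stromal cells as a receptor of fibrillar collagen, led them. Itga11 stood at 12.7 TPM in JC-WT cells, 17.3 TPM in JC-P cells and 15.5 TPM in JC-M3 cells, a log2 ratio of 0.43 (0.25 to 0.64) for JC-P/JC-WT. Itga1 stood at 3.32 TPM in JC-WT cells, 1.36 TPM in JC-P cells and 2.62 TPM in JC-M3 cells, from 331, 166 and 334 reads. JC-P was its low library, with a log2 ratio of -1.04 (-1.57 to -1.01) over JC-WT, and JC-M3/JC-P gave 0.75 (0.67 to 1.22). The call of Itga1 for JC-P/JC-WT was lost with pseudocount 2, at -0.66. Itga10 stood at 1.80 TPM in JC-WT cells, 1.20 in JC-P cells and 2.16 in JC-M3 cells, but 33.5% of its exon bases also belong to Gm42957 and 30.6% of its 50-base windows are found elsewhere in the transcriptome, so its level is uncertain. Itga2, the epithelial and platelet collagen receptor subunit, had 10, 8 and 7 reads. Its neighbour Itga1 lies 21.0 kb away on chromosome 13, and Itga1 was the higher of the pair in each library. The sum of the 4 genes was 18.1 TPM in JC-WT cells, 20.02 TPM in JC-P cells and 20.4 TPM in JC-M3 cells, far below both other groups.

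**Figure D3:**
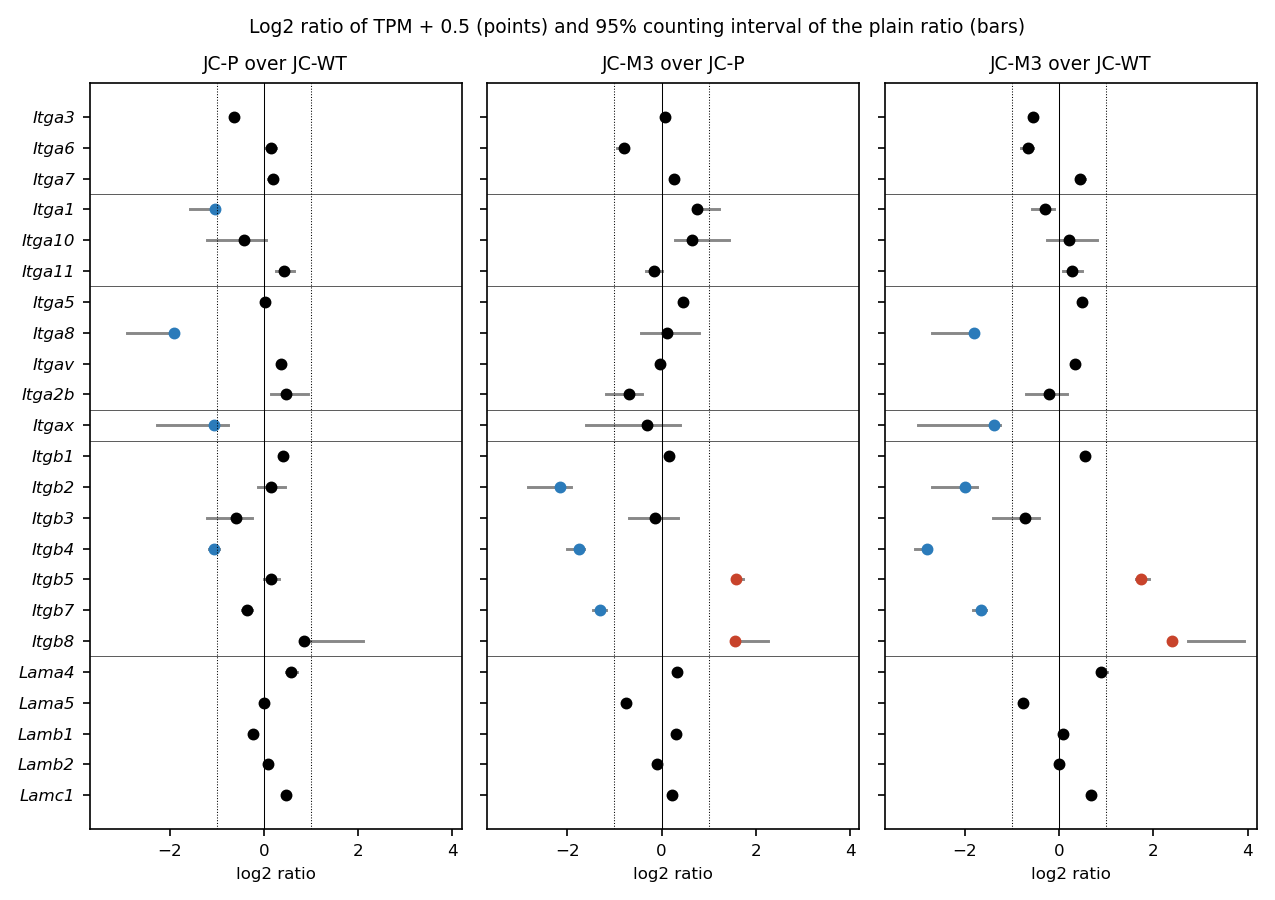
Log2 ratio of TPM + 0.5 for 23 measured genes in the 3 comparisons (points, red where at least 2-fold higher, blue where at least 2-fold lower, black within 2-fold), with the 95% counting interval of the plain ratio (bars) and dotted lines at 2-fold. The ratios of JC-M3/JC-WT run from -2.81 for Itgb4 to 2.39 for Itgb8, and the points of Itga8 and Itgb8 lie toward or past the end of their bars because of the added 0.5 TPM.

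The laminin chains above 10 TPM in every library were those of the trimers with α5 or α4, β1 or β2, and γ1. Lama5, the main epithelial α chain of adult basement membranes, stood at 171.5 TPM in JC-WT cells, 171.3 TPM in JC-P cells and 101 TPM in JC-M3 cells, from 10484, 12823 and 7915 reads. JC-M3 was the low library, with a log2 ratio of -0.76 (-0.80 to -0.72) over JC-P, and JC-P/JC-WT gave 0.00 (-0.04 to 0.04). Lama4, the α chain of vessels, muscle and other mesenchymal tissue, stood at 15.8 TPM in JC-WT cells, 23.7 TPM in JC-P cells and 29.8 TPM in JC-M3 cells, from 1025, 1876 and 2466 reads. Its log2 ratio was 0.57 (0.47 to 0.69) for JC-P/JC-WT, 0.33 (0.25 to 0.42) for JC-M3/JC-P and 0.89 (0.81 to 1.02) for JC-M3/JC-WT. Lama5 TPM was 10.8 times that of Lama4 in JC-WT, 7.24 times in JC-P and 3.40 times in JC-M3. The summed fibroblast markers stood at 41.6 TPM in JC-WT cells, 109.8 TPM in JC-P cells and 51.6 TPM in JC-M3 cells, with 4 of 6 measured and Lum and Thy1 at 0 reads in each. Its members were ordered differently, with Dcn at 1.24 TPM in JC-WT cells, 14.0 in JC-P cells and 22.5 in JC-M3 cells, Col3a1 at 3.99, 46.0 and 8.76 TPM, Pdgfra at 34.1, 47.6 and 20.1 TPM and Dpt at 2.27, 2.12 and 0.254 TPM. Of these, Dcn had the order of Lama4. The summed endothelial markers stood at 273, 301 and 276 TPM in the same order, with 3 of 7 measured and Kdr at 0 reads in each. Eng made up most of that sum, at 265, 265 and 273 TPM, while Plvap stood at 7.60, 17.8 and 2.71 TPM and Cdh5 was high in JC-P alone. The part of either marker list in the level of Lama4 was not tested.

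Of the β and γ chains, Lamb1 stood at 213 TPM in JC-WT cells, 182 TPM in JC-P cells and 226 TPM in JC-M3 cells, with log2 ratios of -0.23 (-0.27 to -0.20) for JC-P/JC-WT and 0.31 (0.28 to 0.35) for JC-M3/JC-P. Lamb2, the chain that replaces β1 in synaptic and kidney basement membranes, stood at 76.6 TPM in JC-WT cells, 81.8 in JC-P cells and 76.3 in JC-M3 cells, with an interval of -0.08 to 0.07 for JC-M3/JC-WT. Lamc1, the common γ chain, stood at 105 TPM in JC-WT cells, 145 TPM in JC-P cells and 169.95 TPM in JC-M3 cells, a log2 ratio of 0.69 (0.64 to 0.74) for JC-M3/JC-WT. The α3 and β3 chains, known from epidermal laminin, had few reads, with Lama3 at 7 reads in JC-WT cells, 17 in JC-P cells and 24 in JC-M3 cells and Lamb3 at 5, 3 and 1. The β chain sum was 290 TPM in JC-WT cells, 264 TPM in JC-P cells and 302 TPM in JC-M3 cells. The α chain sum was 187 TPM in JC-WT cells, 195 TPM in JC-P cells and 131 TPM in JC-M3 cells, lowest in JC-M3.

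Among all 37 genes, 13 stayed below a mean of 1 TPM, none of them above 0.488 TPM in JC-WT cells, 0.600 TPM in JC-P cells or 0.742 TPM in JC-M3 cells. The highest level in JC-M3 was that of Lamc3, a γ chain of a few adult tissues, with 15 reads in JC-WT cells, 24 in JC-P cells and 31 in JC-M3 cells. Lamc3 and Lama3 were the only ones of the 13 to reach 20 reads in a library. Lama1, the α chain of the early embryo, had 0 reads in every library along with Itga4, Itgad and Itgam, and Itga9 had 1 read in JC-WT and 0 in JC-P and JC-M3. Lama2, the muscle α chain, rested on about 2 reads in JC-WT cells, 5 in JC-P cells and 1 in JC-M3 cells. Among these 13 genes, the interval of a ratio left out no change for Lama3 in JC-M3/JC-WT (0.17 to 2.88) and for no other gene or comparison.

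Genes that work with integrins and laminins, in 4 lists chosen by function, are given next. Inside the cell, 0 of 29 measured genes of the integrin adhesome, which holds talins, kindlins and the kinases and adaptors of adhesion sites, were called in any comparison, against backgrounds of 7.1%, 9.2% and 11.4%. Of the 29, 27 reached a mean of 10 TPM. At that mean only 219, 423 and 540 of 9474 features were called, smaller shares than the backgrounds given. The median log2 ratio of the 29 genes was -0.26 for JC-P/JC-WT, 0.13 for JC-M3/JC-P and -0.14 for JC-M3/JC-WT, beside 0.01, -0.01 and 0.00 for all features. Of the 29, 8, 15 and 12 lay above 0. For JC-P/JC-WT the highest were the blood cell kindlin Fermt3 (0.51) and Kank2 (0.37), and the lowest the clathrin adaptor Dab2 (-0.58) and the focal adhesion kinase Ptk2 (-0.56). For JC-M3/JC-P the highest were the adaptor Ilk (0.62) and the talin Tln1 (0.59), and the lowest the kinases Src (-0.68) and Ptk2b (-0.62). For JC-M3/JC-WT they were Fermt3 (0.89) and Lims1 (0.62), and Src (-0.91) and Ptk2 (-0.58). With pseudocount 0.1 Fermt3 would be called for JC-M3/JC-WT, at 1.17.

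Among 13 measured partners of integrins and other laminin receptors, 1 was called in each comparison, against 7.1%, 9.2% and 11.4% of all features, and the median ratio was 0.02 for JC-P/JC-WT, 0.00 for JC-M3/JC-P and -0.03 for JC-M3/JC-WT. The tetraspanin gene Cd81 had 4 reads in JC-WT cells, 293 in JC-P cells and 4 in JC-M3 cells, with log2 ratios of 4.40 (4.53 to 7.79) for JC-P/JC-WT and -4.51 (-8.14 to -4.89) for JC-M3/JC-P. The endothelial cadherin gene Cdh5 was likewise highest in JC-P and stood at 0.0887 TPM in JC-WT cells, 17.7 TPM in JC-P cells and 0.104 TPM in JC-M3 cells. Cd151, the tetraspanin that binds laminin-binding integrins, stood at 267 TPM in JC-WT cells, 271 TPM in JC-P cells and 269 TPM in JC-M3 cells. Dst, the dystonin gene whose epithelial form links β4 to keratin but whose forms are not told apart by counts per gene, stood at 32.6 TPM in JC-WT cells, 47.6 TPM in JC-P cells and 69.1 TPM in JC-M3 cells, a log2 ratio of 1.07 (1.05 to 1.12) for JC-M3/JC-WT. It gave 0.54 for JC-P/JC-WT and 0.53 for JC-M3/JC-P. Plec, encoding the plectin linker of β4, gave 0.53 for JC-M3/JC-P and 0.39 for JC-M3/JC-WT, and Col17a1, the hemidesmosomal collagen, had 38 reads in JC-WT cells, 31 in JC-P cells and 14 in JC-M3 cells. Between JC-M3 and JC-WT, Plec and Dst thus lay in the direction opposite to Itgb4. The other extremes of the list were the syndecan Sdc4 (-0.34) and Rpsa (-0.28), a ribosomal protein gene also known as a laminin receptor, for JC-P/JC-WT, the tetraspanin Cd82 (-0.71) for JC-M3/JC-P, and the syndecan Sdc1 (-0.77) and Cd82 (-0.32) for JC-M3/JC-WT. The laminin receptor dystroglycan, Dag1, stood at 161 TPM in JC-WT cells, 202 in JC-P cells and 149 in JC-M3 cells.

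Of 11 measured further basement membrane genes, 1 was called for JC-P/JC-WT, 0 for JC-M3/JC-P and 1 for JC-M3/JC-WT, all higher, against 4.76%, 3.82% and 6.14% of all features called higher. The medians were 0.12, 0.01 and 0.03 in the order of these comparisons. Hspg2, encoding the proteoglycan perlecan, stood at 108 TPM in JC-WT cells, 158 TPM in JC-P cells and 226 TPM in JC-M3 cells, log2 ratios of 0.54 for JC-P/JC-WT, 0.52 for JC-M3/JC-P and 1.05 (1.02 to 1.09) for JC-M3/JC-WT. Col4a5 gave 1.23 (1.12 to 1.39) for JC-P/JC-WT and was the lowest for JC-M3/JC-P, at -0.65. The main type IV collagen pair Col4a1 and Col4a2 gave -0.69 and -0.50 for JC-P/JC-WT and -0.54 and -0.52 for JC-M3/JC-WT. Sparc was the highest for JC-M3/JC-P, at 0.52, and Col18a1 gave -0.31. Npnt, the nephronectin gene and a ligand of the Itga8 product, stood at 19.1 TPM in JC-WT cells, 26.2 in JC-P cells and 31.9 in JC-M3 cells, highest in JC-M3, where Itga8 was lower than in JC-WT. Nid1, a nidogen that joins laminin to collagen, was at 0.268, 0.175 and 0.063 TPM in the same order.

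Of 14 measured integrin ligands other than laminin, 1 was higher for JC-P/JC-WT, 2 were higher and 2 lower for JC-M3/JC-P, and 2 were higher and 1 lower for JC-M3/JC-WT. Over all features 7.1%, 9.2% and 11.4% were called in these comparisons. The medians of the ligands were 0.20, -0.05 and 0.13. Fn1, the fibronectin ligand of α5β1, stood at 447 TPM in JC-WT cells, 606 TPM in JC-P cells and 949 TPM in JC-M3 cells, a log2 ratio of 1.09 (1.07 to 1.11) for JC-M3/JC-WT, beside 0.48 for Itga5. Spp1, the osteopontin gene, stood at 9604 TPM in JC-WT cells, 15489 TPM in JC-P cells and 5452 TPM in JC-M3 cells, log2 ratios of 0.69 for JC-P/JC-WT, -1.51 (-1.52 to -1.49) for JC-M3/JC-P and -0.82 for JC-M3/JC-WT. Edil3 gave 1.03 for JC-P/JC-WT and -1.63 for JC-M3/JC-P, and Tgfb1, whose latent form αvβ8 activates, gave 1.09 (0.93 to 1.35) for JC-M3/JC-P. For JC-M3/JC-WT Tgfb1 gave 0.46, within 2-fold. Tgfb3, of the same list, lay in the opposite direction, with -0.55 for JC-M3/JC-P and -0.68 for JC-M3/JC-WT. Tgfb3 stood at 98.3 TPM in JC-WT cells, 89.6 in JC-P cells and 61.0 in JC-M3 cells, above Tgfb1 at 12.8, 8.09 and 17.8 TPM. With pseudocount 2 the calls of Edil3 for JC-P/JC-WT (0.86) and of Tgfb1 (0.98) were lost. Postn, the periostin gene, gave 2.29 for JC-M3/JC-P and 1.63 for JC-M3/JC-WT from 55 reads in JC-WT cells, 32 in JC-P cells and 280 in JC-M3 cells, and was at -0.66 for JC-P/JC-WT. Tnc, the tenascin gene, gave -0.69 for JC-P/JC-WT and -1.48 (-1.82 to -1.36) for JC-M3/JC-WT. The vitronectin gene Vtn, a ligand of αvβ5, was at 0 TPM in JC-WT, with 1 read in each of JC-P and JC-M3. Vcam1, a ligand of α4 integrins, stood at 42.0, 45.5 and 70.3 TPM in these populations, in which Itga4 had 0 reads.

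**Figure D4:**
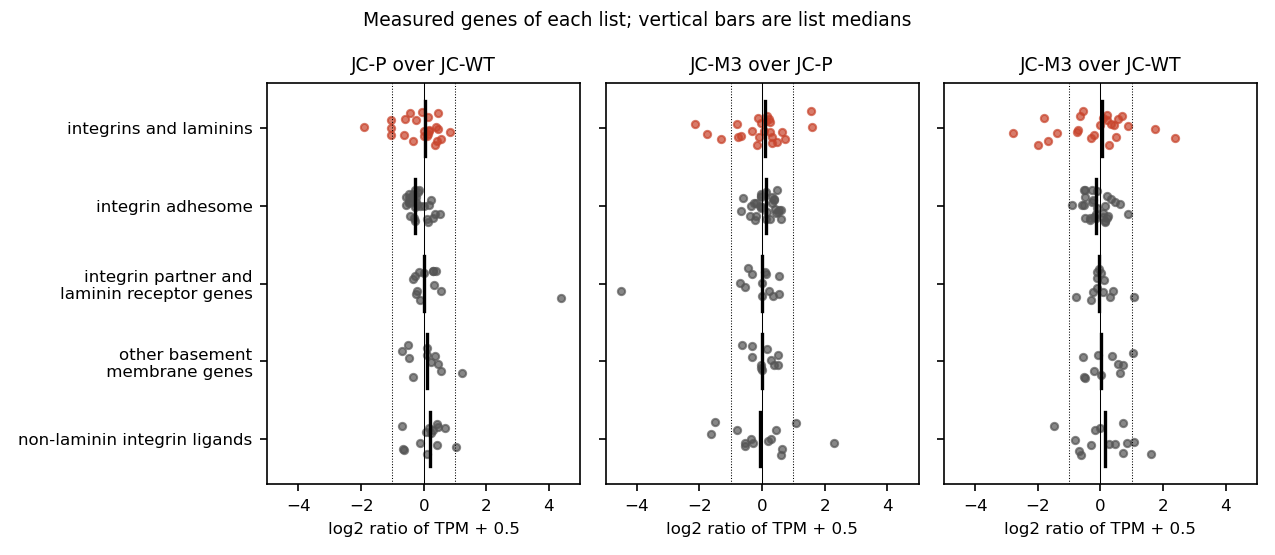
Log2 ratio of TPM + 0.5 of each measured gene of the integrins and laminins (red) and of the 4 lists of related genes (grey) in the 3 comparisons, with list medians as vertical bars and dotted lines at 2-fold; vertical position within a row is only for display. All 29 adhesome genes lie between the dotted lines in each panel, and the lone grey points near 4.40 and -4.51 are Cd81.

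Chromosomes differed in their median ratio, and several members lie on chromosomes whose protein-coding genes were shifted as a whole. In JC-M3/JC-WT that median was -0.44 on chromosome 13, which holds Itga1, -0.31 on chromosome 2, which holds Lama5, Itga6, Itga8 and Itgav, and 0.41 on chromosome 10, which holds Itga7, Itgb2 and Lama4. After these medians were subtracted, the ratio of JC-M3/JC-WT was -0.45 for Lama5, 0.48 for Lama4, 0.03 for Itga7, -2.42 for Itgb2 and -1.49 for Itga8. In the same comparison it was 0.15 for Itga1, -0.35 for Itga6 and 0.63 for Itgav. On chromosome 11, with a median of -0.09, Itgb4 remained at -2.72. For JC-P/JC-WT the subtraction brought Itgb4 to -0.99 and Itgax to -0.98, just inside 2-fold. Itgb7 and Itga5, 1112.3 kb apart on chromosome 15, gave -1.66 and 0.48 for JC-M3/JC-WT, in opposite directions. For JC-M3/JC-P the median of chromosome 15 was 0.24, and its subtraction brought Itga5 from 0.47 to 0.23.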

How the data were processed

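The deposited table gives TPM per gene for 3 libraries, which the authors made by dividing reads by gene length and scaling, per the file headers. STAR 2.7.9a, FastQC 0.11.9 and featureCounts (no version) are named in the submitters' processing notes, as are mm10 and GRCm38. Libraries came from a stranded kit, and the strand setting of the counting is not given in the sources used here. The members were taken by symbol, and the members and lists were chosen with earlier results of these data known. TPM times the merged exon length of GENCODE M21 (GRCm38) gave whole reads, within 0.01, for 98.4% of expressed genes in JC-WT and 98.5% in JC-P and JC-M3. For Itga6 and Lama2 they were rounded. Measured features had a mean of at least 1 TPM. Every measured member was named except 1 that is not reported here but is part of the counts and medians, and of each list the 2 highest and 2 lowest ratios. No test was run. Intervals are exact conditional (Clopper-Pearson) and, like the limit of 3 reads, cover counting error only. The scripts were tested on simulated data. Alternatives concerned pseudocount, scaling, filter, threshold and intervals. The tools were scipy 1.17.1, pandas 2.3.3, numpy 2.4.6, matplotlib 3.10.9 and Python 3.11.15.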

Additional observations from a re-analysis of the deposited data

How the results depend on the processing

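The calls of Itgb2, Itgb4, Itgb5, Itgb7 and Itgb8 for JC-M3/JC-WT kept direction and threshold with other pseudocounts (0.1 and 2), with both rescalings (trimmed means and the median of ratios) and with chromosome medians subtracted, an alternative chosen after seeing the data. Of 360 recomputed values of single members, 7 changed their call, all named here or above with Itgb8 for JC-P/JC-WT at 1.24 with pseudocount 0.1 and Itga1 for JC-M3/JC-P at 1.27 with chromosome medians subtracted. Itgax for JC-M3/JC-WT was -0.71 with pseudocount 2. The number of members called for JC-P/JC-WT was 4, and 2 with pseudocount 2, 1 where the mean reached 10 TPM, 7 at 1.5-fold, 1 at 3-fold and 2 with chromosome medians subtracted. For JC-M3/JC-P it was 5, and 3 where the mean reached 10 TPM, 10 at 1.5-fold and 3 at 3-fold. For JC-M3/JC-WT it was 7, and 3 where the mean reached 10 TPM and 12 at 1.5-fold. With a mean of 10 TPM required, the median of the members for JC-M3/JC-WT was 0.28. For all features the calls for JC-P/JC-WT, JC-M3/JC-P and JC-M3/JC-WT numbered 534, 771 and 993 with pseudocount 2, 1935, 2312 and 2691 with no filter on the mean, 219, 423 and 540 when a mean of 10 TPM was required, 2740, 3390 and 3852 at 1.5-fold, and 415, 525 and 701 at 3-fold. For JC-P/JC-WT they numbered 616 when the interval also had to leave out no change. Of the lists of related genes, the ligands had 0, 3 and 3 calls in these comparisons with pseudocount 2 and 0, 2 and 1 where the mean reached 10 TPM, and the adhesome had 1 call, for JC-M3/JC-WT, with pseudocount 0.1. These counts differ by construction, since the settings alter which features can pass. No paired analysis was possible because each population has 1 library. Depth limits the 13 members under 1 TPM and Itgax, Itga8, Itga10 and Itgb8.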
